A study of Mus musculus with 11 samples.

Results

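The autophagy machinery was examined as 40 genes, out of 12787 with a value in every mouse, in gonadal white adipose tissue (WAT) of mice. The genes were chosen by symbol: the Atg, Map1lc3 and Gabarap families, Ulk1 to Ulk3, Wipi1, Wipi2, Becn1, Pik3c3, Pik3r4, Uvrag, Ambra1, Rb1cc1, the cargo receptors Sqstm1, Nbr1 and Optn, and the mitophagy genes Bnip3, Bnip3l and Pink1. RNA was sequenced from the tissue of 11 male C57Bl6/J mice, 5 kept on a 60% high fat diet with vehicle (HFD) and 6 on the same diet with 0.06% w/w iodomethylcholine (HFD + IMC). IMC is a small molecule that blocks the gut bacterial enzyme converting choline to trimethylamine. The submitters' design note has all animals on the high fat diet before the study, whether IMC began together with the diet in these mice is not stated, tissue was collected after 20 weeks of diet, and a further control sample was dropped by the submitters for quality. The sources used here do not tie an age to the sequenced mice, and the labels name no cage or litter for a mouse. The p-values therefore set the difference between the groups against the spread among these 11 mice, taken as separate animals.

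Autophagy is the route by which a cell encloses its own cytoplasm or organelles in a double membrane, the autophagosome, and delivers them to the lysosome for breakdown. A kinase complex and a lipid kinase complex start the membrane, a set of membrane proteins extends it, and a conjugation system similar to that of ubiquitin attaches the small ATG8 proteins (the LC3 and GABARAP proteins) to it. Cargo receptors tie selected material to the ATG8 proteins, and in fat cells the selective removal of mitochondria, mitophagy, is tied to the change between beige and white fat. The amounts of these mRNAs do not measure the flow of material through the pathway.

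Of the 40 genes, 16 (40%) passed the test between the groups, limma with a Benjamini-Hochberg adjusted p below 0.05 over the whole table, against 40.9% of the 12787 genes. Higher expression in HFD + IMC was found for 12 of the 40 and lower expression for 4 of the 40, against 20% and 21% of all genes. The share of autophagy genes called was therefore near that of the whole table. The median log2 fold change of the 40 was 0.04, against -0.03 over all genes, and the median absolute log2 fold change was 0.10, against 0.17. The 3 largest differences were increases of Map1lc3a, Optn and Bnip3, each between 53.6% and 55.5%, as the plot of fold changes shows. When the libraries were scaled to equal totals in place of the authors' upper quartile, the split was 10 higher and 6 lower, and over all genes the share of calls that were higher went from 48.8% to 40.3%. That scaling moved the median log2 fold change of all genes by -0.03.

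**Figure D1:**
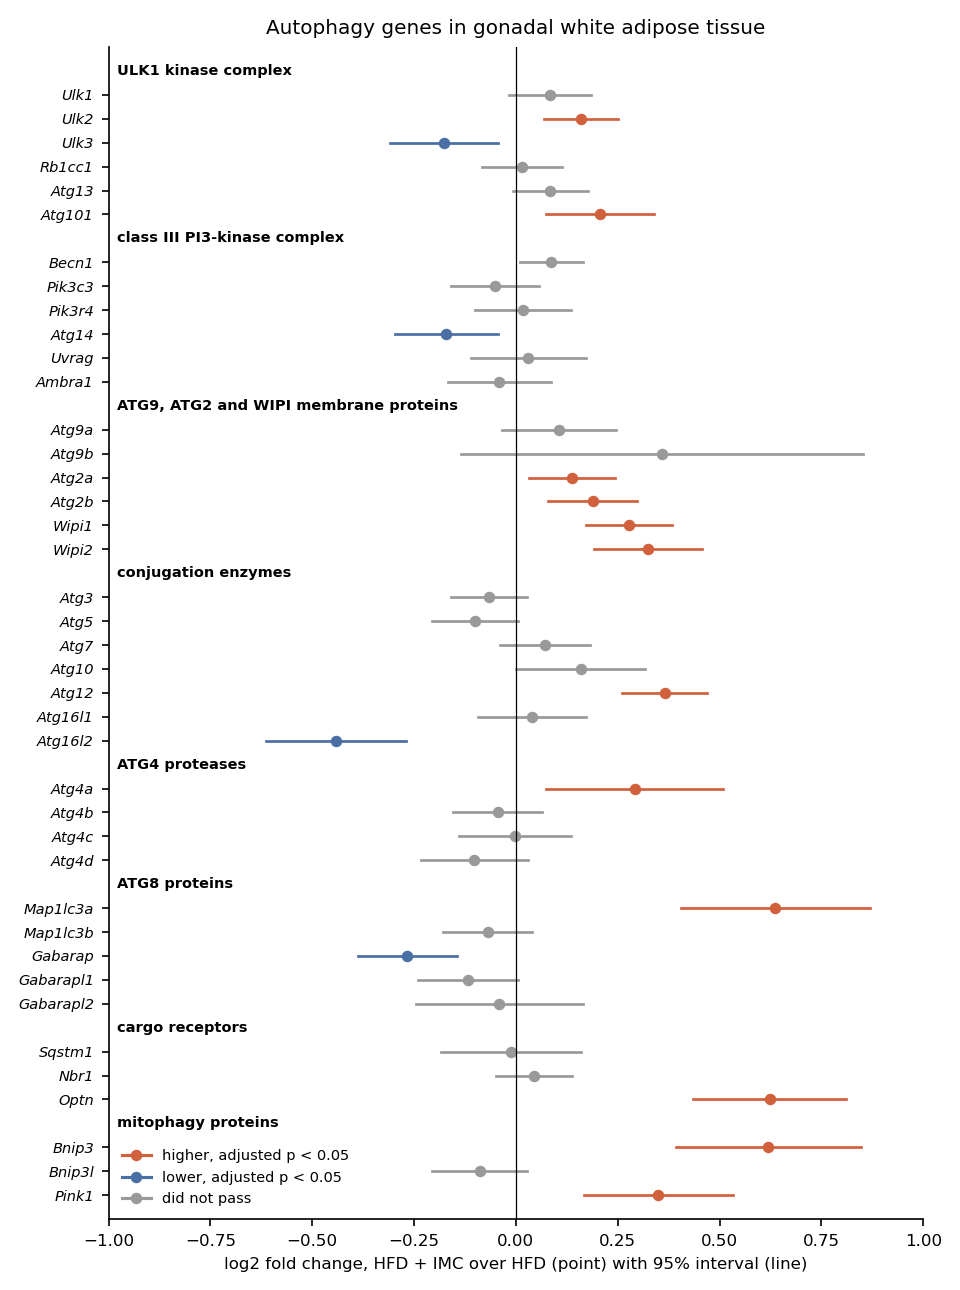
Log2 fold change of each of the 40 autophagy genes (horizontal axis, HFD + IMC over HFD, points with 95% limma intervals), grouped by role, with orange for higher, blue for lower and grey for genes that did not pass an adjusted p of 0.05. Map1lc3a (0.64), Optn (0.62) and Bnip3 (0.62) lie farthest to the right and Atg16l2 (-0.44) farthest to the left.

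Per mouse, 22320022 to 25155366 reads fell on the genes of the table, and every value could be turned back into whole reads. The autophagy genes had a median of 1423 reads per mouse, and the lowest value was 13 reads for Atg9b. Marker genes of the cell types in the tissue moved with the groups. All 12 adipocyte markers were higher in HFD + IMC (summed expression 10803 to 15803 CPM in HFD and 21787 to 26276 CPM in HFD + IMC), with Aqp7, Lep and Slc2a4 at log2 fold changes of 0.91, 1.04 and 1.26. Of 13 macrophage markers listed, 12 were lower (14847 to 20339 CPM against 8066 to 13284 CPM), with Trem2, Cd14 and Cd68 at -0.79, -0.56 and -0.61, and all 7 mast cell markers were lower (507 to 1157 CPM against 161 to 326 CPM), with Cma1, Cpa3 and Mcpt4 at -1.56, -1.42 and -1.34. Fibroblast and progenitor markers were lower for 5 of 8 (8909 to 11471 CPM against 6887 to 9075 CPM). Mesothelial markers were lower for 1 of 6 listed, Wt1, with Msln not listed (273 to 379 CPM against 126 to 322 CPM), and endothelial markers were higher for 1 of 7, Cdh5 (429 to 603 CPM against 496 to 703 CPM). Of 15 skeletal muscle markers 6 were listed and 4 were higher (25.6 to 38.6 CPM against 53.6 to 82.8 CPM), while the defining muscle genes Ckm, Myh1, Myh4, Ttn and others were not listed. None of 9 lymphocyte markers and none of 8 epididymis markers were listed. The part of these cell types in the results was not tested, and in whole tissue fewer cells of a type and less RNA per cell cannot be told apart.

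Among the ATG8 genes, which encode the ubiquitin-like proteins placed on the autophagosome membrane, 1 rose, 1 fell and 3 did not pass. The share called was 40%, against 40.9% of all genes. Map1lc3a, on chromosome 2 from 155276364 to 155278073 (plus strand, GRCm38.p6), encodes LC3A. Map1lc3a measured 6.58, 6.85, 6.59, 6.65 and 7.17 log2 CPM in HFD mice 1 to 5, and its lowest, median and highest values in the 6 HFD + IMC mice were 7.19, 7.44 and 7.61 log2 CPM. The groups did not overlap, although HFD mouse 5 lay just under the lowest HFD + IMC mouse. Map1lc3a rose by 0.64 ± 0.11 (SE) on the log2 scale, or 55.5%, with an adjusted p of 0.000599 by limma. HFD mice 2 and 5, the highest of their group for Map1lc3a, were also the highest of their group for the summed adipocyte markers (15369 and 15803 CPM), and whether this bears on the increase was not tested.

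Map1lc3b, on chromosome 8, encodes LC3B, the form most often followed as a marker of autophagosomes, and its gene overlaps Zcchc14. Map1lc3b measured 7.18, 7.18, 7.14, 6.99 and 7.09 log2 CPM in HFD mice 1 to 5, with 6.97, 7.02 and 7.17 log2 CPM as the lowest, median and highest in HFD + IMC. These ranges overlapped, and the log2 fold change was -0.07 with a 95% interval of -0.18 to 0.04 (adjusted p = 0.293 by limma). Gabarap, on chromosome 11 from 69991370 to 69994949 (plus strand), encodes a protein of the second ATG8 subfamily. Gabarap measured 9.06, 8.82, 8.93, 8.81 and 8.90 log2 CPM in HFD mice 1 to 5, and the lowest, median and highest HFD + IMC mice had 8.55, 8.64 and 8.74 log2 CPM. Every HFD + IMC mouse was below every HFD mouse. Gabarap fell by 0.27 on the log2 scale (SE 0.06, adjusted p = 0.00241 by limma).

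Gabarapl1 measured 8.20, 7.92, 7.95, 7.92 and 8.0 log2 CPM in HFD mice 1 to 5, against a lowest of 7.79, a median of 7.88 and a highest of 7.95 log2 CPM in HFD + IMC. HFD mouse 1 was the highest for this close relative of Gabarap and the groups overlapped (log2 fold change -0.12, 95% interval -0.24 to 0.00, adjusted p = 0.112 by limma). With libraries scaled to equal totals Gabarapl1 passed as lower, at -0.15 with an adjusted p of 0.0371. Gabarapl2 measured 3.42, 3.12, 3.06, 2.93 and 3.09 log2 CPM in HFD mice 1 to 5, and 2.94, 3.09 and 3.26 log2 CPM as the lowest, median and highest in HFD + IMC. This GABARAP relative did not pass (-0.04, 95% interval -0.25 to 0.16), and the annotation lists 6 pseudogenes of it that could take its reads, so its level is uncertain. The plot of single mice shows Map1lc3a, Gabarap and Map1lc3b beside genes of the other roles.

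**Figure D2:**
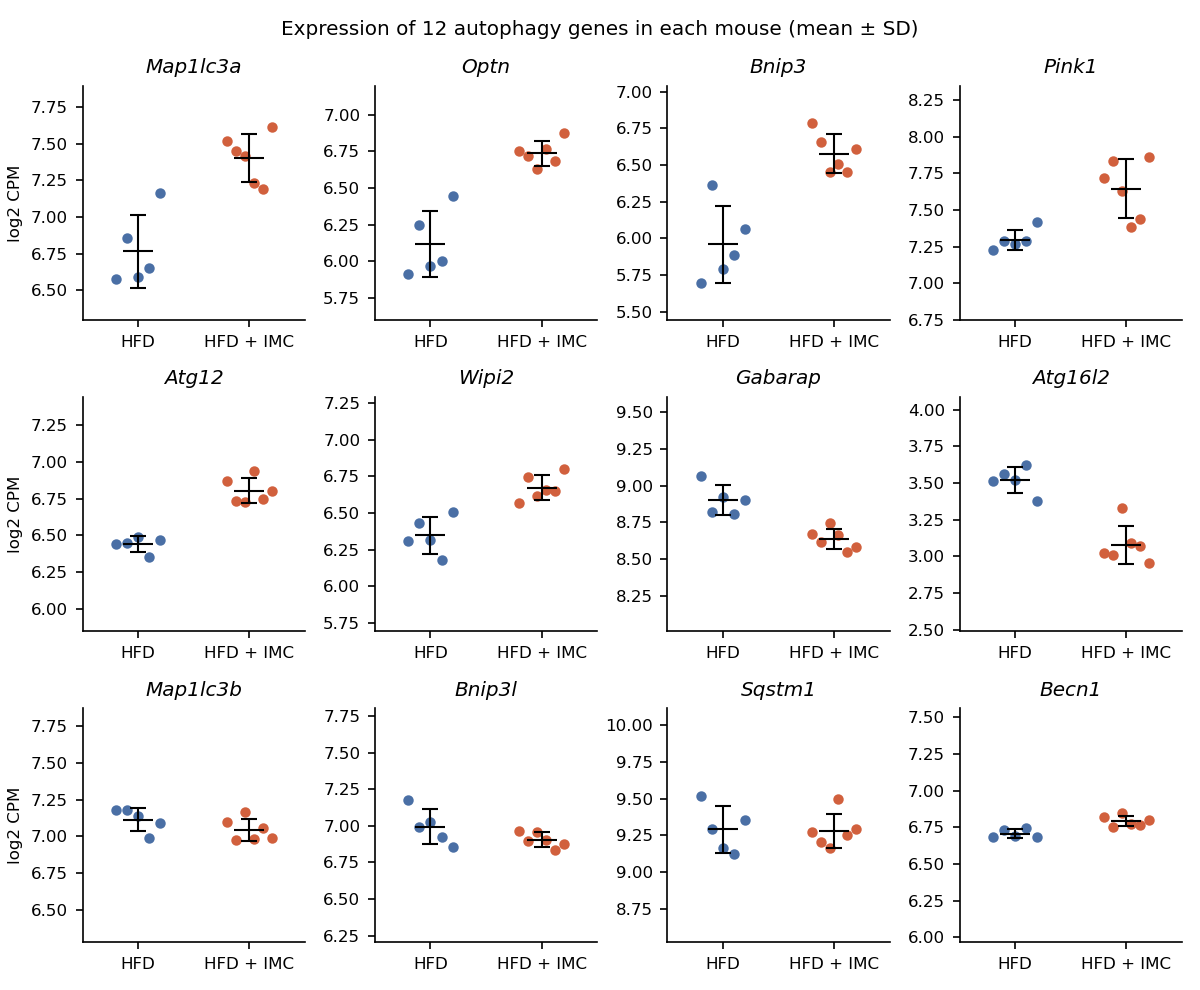
Log2 CPM (vertical axes, each spanning the same range) of 12 autophagy genes, with 1 point per mouse and bars for the mean and SD of the HFD and HFD + IMC groups. Map1lc3a, Optn, Bnip3, Atg12, Wipi2 and Becn1 are higher and Gabarap and Atg16l2 are lower in every HFD + IMC mouse than in any HFD mouse, while Pink1, Map1lc3b, Bnip3l and Sqstm1 overlap.

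Because a difference between related genes within a mouse does not depend on library scaling, 6 pairs of log2 CPM values were compared. Map1lc3a minus Map1lc3b averaged -0.35 ± 0.27 (SD, n = 5) in HFD and 0.36 ± 0.18 (SD, n = 6) in HFD + IMC. The change of 0.71 had a two-sided exact permutation p of 0.00216, the smallest that groups of 5 and 6 mice allow, and 0.00433 after adjustment over the 6 pairs. In every HFD + IMC mouse, and also in HFD mouse 5, Map1lc3a was above Map1lc3b in CPM, not corrected for length. Gabarapl1 minus Gabarap was -0.91 ± 0.04 (SD) in HFD and -0.76 ± 0.05 (SD) in HFD + IMC, a change of 0.15 with the same exact permutation p and adjusted value. Ulk2 minus Ulk1 differed by 0.08 (adjusted exact permutation p = 0.0877), Atg9b minus Atg9a by 0.25 (adjusted exact permutation p = 0.413) and Sqstm1 minus Nbr1 by -0.06 (adjusted exact permutation p = 0.496). The pair of Bnip3 and Bnip3l is given with the mitophagy genes.

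**Figure D3:**
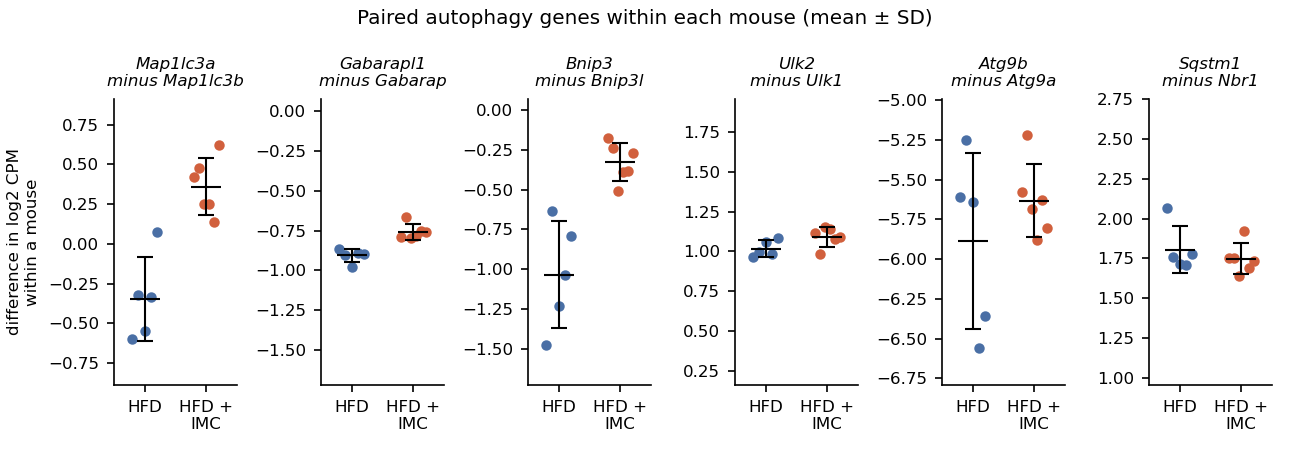
Difference in log2 CPM between the genes of a pair within each mouse (vertical axis), with 1 point per mouse and the mean and SD of each group. Map1lc3a minus Map1lc3b, Gabarapl1 minus Gabarap and Bnip3 minus Bnip3l are higher in every HFD + IMC mouse than in any HFD mouse, and the other pairs overlap.

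Of the mitophagy genes, Bnip3 and Pink1 rose and Bnip3l did not pass (66.7% called, against 40.9% of all genes). Bnip3, on chromosome 7 from 138890836 to 138909506 (minus strand), encodes a receptor in the outer mitochondrial membrane that binds ATG8 proteins. Bnip3 measured 5.69, 6.36, 5.79, 5.89 and 6.06 log2 CPM in HFD mice 1 to 5, and the lowest, median and highest of the HFD + IMC mice were 6.45, 6.56 and 6.79 log2 CPM. HFD mouse 2 came closest to the HFD + IMC mice, and the groups did not overlap. Bnip3 rose by 0.62 ± 0.11 (SE) on the log2 scale, or 53.6% (adjusted p = 0.00062 by limma). Bnip3l encodes NIX, the related receptor known from the clearance of mitochondria in red blood cells. Bnip3l measured 7.17, 6.99, 7.02, 6.93 and 6.85 log2 CPM in HFD mice 1 to 5, with 6.84, 6.90 and 6.97 log2 CPM as the lowest, median and highest in HFD + IMC. The groups overlapped, with a log2 fold change of -0.09 (95% interval -0.21 to 0.03, adjusted p = 0.212 by limma). Bnip3 minus Bnip3l within a mouse was -1.04 ± 0.34 (SD, n = 5) in HFD and -0.33 ± 0.12 (SD, n = 6) in HFD + IMC (two-sided exact permutation p = 0.00216, adjusted p = 0.00433). The annotation lists a pseudogene of Bnip3l and an overlap of Bnip3 with Gm18258, and reads shared with them were not assessed. Pink1 encodes a kinase that marks damaged mitochondria. Pink1 measured 7.23, 7.29, 7.27, 7.28 and 7.41 log2 CPM in HFD mice 1 to 5, and 7.38, 7.68 and 7.86 log2 CPM as the lowest, median and highest in HFD + IMC. The lowest HFD + IMC mouse was under HFD mouse 5, and Pink1 rose by 0.35 ± 0.08 (SE) on the log2 scale (limma, adjusted p = 0.00542).

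The E-box CACGTG can be bound by TFEB and the related MITF proteins and by the clock proteins CLOCK and BMAL1. It was looked for in the RefSeq windows from 250 bases before to 50 bases after an annotated start (GRCm38.p6). Both strands were covered, the motif reading the same on each. An annotated start need not be the first base of the gene. The Atg7 window (chr6:114670846-114671145) lies inside its gene (114643127 to 114860604), as do the windows of Atg4c, Atg10, Optn and Ulk3. A further window of Atg4a and of Nbr1 also lies inside the gene. Of the 40 genes, 33 were in the promoter table. Map1lc3a and Atg12, which both passed the test, and Becn1, Pik3c3, Rb1cc1, Atg16l1 and Bnip3l had no window and were not examined. Of the 33, 5 (15.2%) held the motif, Atg14, Atg3, Atg5, Atg7 and Bnip3, against 11.7% of 10191 listed genes. By windows this was 5 of 36 (13.9%) against 9.79% of 13001. The forkhead motif GTAAACA was in 0 of the 36 windows and in 2.52% of all windows. The windows of Bnip3 and Atg14 are shown. Among the 33 genes with a window, these were the ones with a motif that passed the test, Bnip3 higher and Atg14 lower. The Bnip3 window lies at chr7:138909457-138909756 and that of Atg14 at chr14:47568385-47568684, both on the minus strand, with the motif in capitals. It begins 108 bases before the start of Bnip3 and 1 base before that of Atg14.
Bnip3: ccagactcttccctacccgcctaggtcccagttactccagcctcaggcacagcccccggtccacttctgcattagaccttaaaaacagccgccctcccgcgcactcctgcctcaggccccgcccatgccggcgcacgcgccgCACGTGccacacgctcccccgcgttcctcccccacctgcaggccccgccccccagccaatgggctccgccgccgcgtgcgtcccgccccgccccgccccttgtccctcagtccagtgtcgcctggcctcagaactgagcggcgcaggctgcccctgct
Atg14: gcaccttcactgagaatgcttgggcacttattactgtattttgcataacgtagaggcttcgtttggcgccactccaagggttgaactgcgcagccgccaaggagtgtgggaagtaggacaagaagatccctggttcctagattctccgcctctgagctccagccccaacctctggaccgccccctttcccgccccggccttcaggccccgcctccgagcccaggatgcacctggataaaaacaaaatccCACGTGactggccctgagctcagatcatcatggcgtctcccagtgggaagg
The motif was present in the window of a gene that rose and of a gene that fell, and also in those of Atg3, Atg5 and Atg7, which did not pass, and a match in these letters is a description only.

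Of the cargo receptors, Optn rose and the others did not pass (33.3% called, against 40.9% of all genes). Optn, on chromosome 2 from 5020521 to 5064399 (minus strand), encodes optineurin, which binds ubiquitin on damaged mitochondria and bacteria. Optn measured 5.91, 6.25, 5.97, 6.00 and 6.45 log2 CPM in HFD mice 1 to 5, and 6.63, 6.73 and 6.88 log2 CPM as the lowest, median and highest in HFD + IMC. All HFD + IMC mice were above all HFD mice, of which mice 2 and 5 were the highest, as for Map1lc3a. Optn rose by 0.62 ± 0.09 (SE) on the log2 scale, or 54.0% (limma, adjusted p = 0.000177). Sqstm1 encodes p62, the best known receptor for ubiquitin-tagged cargo, and its log2 fold change was -0.01 with a 95% interval of -0.18 to 0.16. Nbr1, a receptor related to p62, had a log2 fold change of 0.05 (95% interval -0.05 to 0.14).

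The conjugation enzymes had 1 gene higher and 1 lower of 7 (28.6% called, against 40.9% of all genes). Atg12 encodes the ubiquitin-like protein that is joined to ATG5 and had the smallest p of the 40 genes. Atg12 measured 6.44, 6.45, 6.49, 6.35 and 6.47 log2 CPM in HFD mice 1 to 5, while the lowest, median and highest HFD + IMC mice had 6.73, 6.78 and 6.94 log2 CPM. The HFD mice lay close together and below all HFD + IMC mice. Atg12 rose by 0.36 ± 0.05 (SE) on the log2 scale (adjusted p = 0.000127 by limma), and its gene overlaps Ap3s1. The libraries were made with a directional kit and reads were counted per gene by the aligner, but which strand column was kept is not stated, so reads shared with Ap3s1 could not be assessed. Atg16l2, a relative of the scaffold gene Atg16l1, fell by 0.44 on the log2 scale (SE 0.08, adjusted p = 0.000921), from 3.38 to 3.62 log2 CPM in HFD to 2.95 to 3.33 log2 CPM in HFD + IMC, without overlap. Atg16l1 itself had a log2 fold change of 0.04 (95% interval -0.09 to 0.17). Atg7, which activates ATG12 and the ATG8 proteins, had 0.07 (-0.04 to 0.18), and Atg3, which hands over the ATG8 proteins, had -0.07 (-0.16 to 0.03). Atg10, which hands over ATG12, had 0.16 with an adjusted p of 0.102, and passed only without HFD + IMC mouse 5 (0.20, adjusted p = 0.0269). Atg5 had -0.10 with an adjusted p of 0.12, and passed as lower without HFD mouse 5 (-0.13, adjusted p = 0.0341) and with equal library totals (-0.13, adjusted p = 0.0333).

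The membrane proteins that extend the autophagosome had 4 of 6 genes higher and none lower, where 20% of all genes were higher, and the call of Atg2a among the 4 was not stable. Wipi2, which binds the lipid made by the lipid kinase complex and recruits ATG16L1, rose by 0.32 ± 0.06 (SE) on the log2 scale (adjusted p = 0.00127 by limma), from 6.18 to 6.51 log2 CPM in HFD to 6.57 to 6.80 log2 CPM in HFD + IMC. Its relative Wipi1 rose by 0.28 ± 0.05 (SE, adjusted p = 0.000763), from 5.11 to 5.27 log2 CPM to 5.41 to 5.58 log2 CPM. Neither gene overlapped between the groups. Atg2b and Atg2a encode proteins that carry lipids into the growing membrane, and they rose by 0.19 ± 0.05 (SE, adjusted p = 0.0101) and 0.14 ± 0.05 (SE, adjusted p = 0.0384). Atg2a kept its call only without HFD mouse 2 or HFD + IMC mouse 1 or 6. Without any 1 of the other 8 mice its adjusted p was 0.0556 to 0.0842, and it was 0.0544 without the variance trend and 0.115 with equal library totals. Atg9a, the membrane-spanning protein of the vesicles that seed the membrane, had a log2 fold change of 0.11 (adjusted p = 0.21). HFD mouse 5, at 6.07 log2 CPM, stood above the other HFD mice at 5.72 to 5.76, and without it Atg9a passed (0.17, adjusted p = 0.00792 by limma). Atg9b, which overlaps Nos3, had 22.8 reads per HFD mouse on average and a wide interval, from -0.14 to 0.85.

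The ULK1 kinase complex starts autophagy. Among the genes grouped here for this complex and its related kinases, Ulk2 and Atg101 rose and Ulk3 fell (50% called, against 40.9% of all genes). Ulk2, a kinase closely related to ULK1, ranged from 6.88 to 7.03 log2 CPM in HFD and from 7.09 to 7.18 in HFD + IMC, without overlap (0.16 ± 0.04 SE, adjusted p = 0.0088 by limma). Atg101, which steadies ATG13 in the complex, rose by 0.21 ± 0.06 (SE, adjusted p = 0.0174), and its adjusted p was 0.0505 without HFD mouse 3. Ulk3, a more distant kinase grouped here by its symbol and not as a part of the complex, fell by 0.18 on the log2 scale (SE 0.06, adjusted p = 0.0356 by limma). Its call held without HFD mouse 5 or HFD + IMC mouse 5, and was lost without any 1 of the other 9 mice (adjusted p 0.0585 to 0.0801). Ulk1 had a log2 fold change of 0.08 (95% interval -0.02 to 0.18), Atg13, the adaptor of the kinase, 0.08 (-0.01 to 0.18), and Rb1cc1, the scaffold FIP200, 0.01 (-0.08 to 0.11).

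The lipid kinase complex had 1 of 6 genes called (16.7%, against 40.9% of all genes). Atg14, which directs the complex to the forming autophagosome, fell by 0.17 on the log2 scale (SE 0.06, adjusted p = 0.0325 by limma), with the groups overlapping. Its call held without HFD mouse 5 or HFD + IMC mouse 3 or 5, and was lost without any 1 of the other 8 mice (adjusted p 0.0530 to 0.0712). Becn1, encoding the core protein Beclin, was higher in every HFD + IMC mouse (6.75 to 6.85 log2 CPM) than in any HFD mouse (6.68 to 6.75), the ranges meeting only after rounding, yet did not pass (0.09, 95% interval 0.01 to 0.16, adjusted p = 0.0668), and its gene overlaps Cntd1. Pik3c3, the lipid kinase VPS34, had a log2 fold change of -0.05 (-0.16 to 0.06), and Pik3r4, its partner VPS15, had 0.02 (-0.10 to 0.14). Uvrag, which replaces ATG14 in the endosomal form of the complex, had 0.03 (-0.11 to 0.17), and the regulator Ambra1 had -0.04 (-0.17 to 0.09). Of the proteases that trim and release ATG8 proteins, Atg4a rose by 0.29 ± 0.10 (SE, adjusted p = 0.0335), with the groups overlapping. The share of these proteases called was 25%, against 40.9% of all genes. The annotation lists a pseudogene of Atg4a and an overlap with Psmd10, and the call was lost without HFD mouse 3, 4 or 5 or HFD + IMC mouse 3 or 6 (adjusted p 0.0649 to 0.0744) and with equal library totals (adjusted p = 0.0523). Atg4b had -0.04 (-0.15 to 0.06), Atg4c -0.00 (-0.14 to 0.14) and Atg4d -0.10 (-0.23 to 0.03).

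The groups did not overlap for 10 of the 40 genes, 8 higher and 2 lower in HFD + IMC, against 23.1% of all genes (12.5% of all genes higher and 10.5% lower). Among the 16 called genes, HFD mouse 5 was nearer to the HFD + IMC mean for 4 and HFD + IMC mouse 5 nearer to the HFD mean for 5, while each of the other mice was on the far side for at most 2. The spread between mice was small, with a median SD within groups of 0.0859 log2 CPM for the autophagy genes against 0.133 for all genes. Becn1 had the smallest SD (0.0325) and Atg9b the largest (0.371). The heat map shows the mice by gene.

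**Figure D4:**
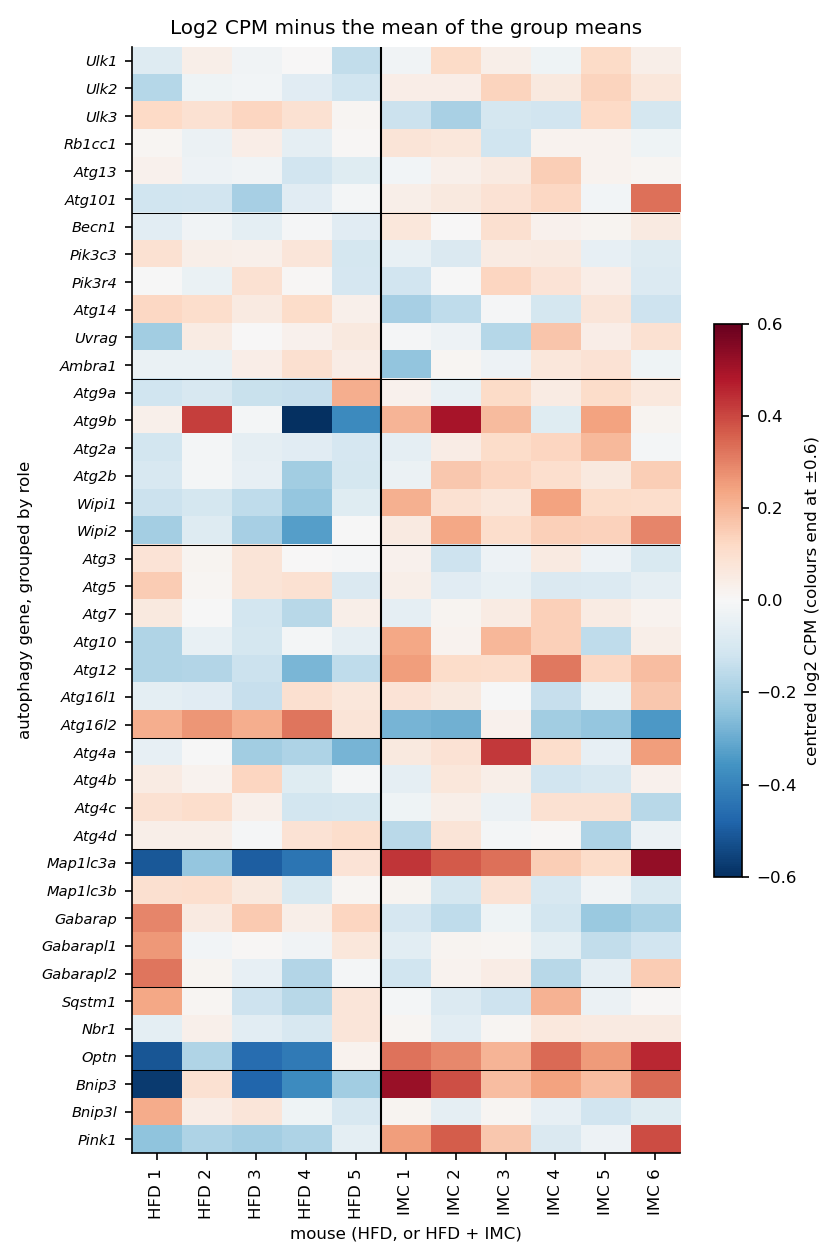
Log2 CPM of the 40 autophagy genes (rows, grouped by role) in the 11 mice (columns, 5 HFD and 6 HFD + IMC), shown by colour as the difference from the mean of the 2 group means, with colours ending at ±0.6. The contrast between the groups is deepest for Map1lc3a, Optn and Bnip3, where HFD mice 2 and 5 are paler than the other HFD mice, and Atg9b varies within the groups.

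Levels per kilobase of exon allow an approximate comparison between genes, since the length was that of all annotated exons together. The transcript expressed may be shorter. On this scale Gabarap was the most abundant of the 40 in HFD mice at a mean of 8.47 log2 CPM per kb. It was followed by Sqstm1 at 7.79, Gabarapl1 at 7.13 and Map1lc3a at 6.61 log2 CPM per kb. In HFD + IMC the level of Map1lc3a was 7.25 log2 CPM per kb, above that of Gabarapl1 at 7.01. Map1lc3b was at 4.74 log2 CPM per kb in HFD and 4.67 in HFD + IMC. Among the mitophagy genes, Pink1 was at 5.88, Bnip3l at 5.28 and Bnip3 at 5.07 log2 CPM per kb in HFD. In HFD + IMC Bnip3, at 5.69 log2 CPM per kb, was above Bnip3l at 5.19, with the pseudogene of Bnip3l and the overlap of Bnip3 not assessed. Atg9b had the lowest level, at -2.05 log2 CPM per kb in HFD.

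Other genes around the pathway were followed in 6 lists of 94 genes, 87 of them listed. Of these 87, 47 (54%) passed, 25 higher and 22 lower, against 40.9% of all genes. Their median log2 fold change was -0.02, against -0.03 over all genes. The lists were chosen with earlier results of these data known, so the higher share is not a test of the lists. The nutrient sensor mTORC1 and its lysosomal platform, which holds both activators and inhibitors, had 14 of 26 genes called, 8 higher and 6 lower. They included the mTOR-binding inhibitor Deptor (0.65 ± 0.09 SE, adjusted p = 0.000138), the kinase Mtor (0.39 ± 0.06 SE, adjusted p = 0.000402) and the leucine sensor Sesn2 (0.73 ± 0.12 SE, adjusted p = 0.000549), all by limma. A list of 8 genes held the subunits of the energy sensor AMPK and 1 kinase upstream of it. Of these 8, 3 were higher, the subunits Prkaa2 (0.85), Prkag3 (0.86) and Prkag2 (0.23). Prkag3 is a subunit known from skeletal muscle. The summed muscle markers went from 25.6 to 38.6 CPM in HFD to 53.6 to 82.8 CPM in HFD + IMC. Single muscle markers did not all move this way. Of the 6 listed, 4 were higher and 2 did not pass, both with log2 fold changes below 0 (lowest -0.27). The part of muscle tissue in the change of Prkag3 was not tested.

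Of 8 transcription factors of autophagy genes, 6 passed, 2 higher and 4 lower, where 40.9% of all genes passed. Tfeb, a regulator of lysosomal and autophagy genes, fell by 0.42 on the log2 scale (SE 0.07, adjusted p = 0.000351 by limma), its relative Mitf fell by 0.43 (SE 0.10, adjusted p = 0.00391), and the forkhead factor Foxo4 rose by 0.24 (SE 0.04, adjusted p = 0.000533). Other early autophagy genes had 7 of 13 called, 5 higher and 2 lower, including Trp53inp2, whose protein binds ATG8 proteins (0.87), Ei24 (0.20) and Vmp1 (-0.35), an endoplasmic reticulum protein of early autophagosome formation. Other receptors had 6 of 15 called, 3 each way, with the mitophagy receptor Bcl2l13 at 0.55 (SE 0.06, adjusted p = 3.64e-05), the receptor for the endoplasmic reticulum Fam134b at -0.33 and the mitophagy receptor Fundc1 at -0.21. Genes for the fusion of autophagosomes with lysosomes had 11 of 17 called, 4 higher and 7 lower. The fusion proteins Vamp8 and Stx17 moved in opposite directions (-0.37 and 0.26), and the tether Epg5 rose by 0.30.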

How the data were processed

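RNA sequencing of gonadal WAT from 11 mice (5 HFD, 6 HFD + IMC) was used, with 1 library per mouse and groups taken from the labels. Trim Galore (trimming), FastQC (quality) and STAR (alignment to mm10, UCSC annotations) were used by the authors, who dropped transcripts of low count and applied upper-quartile scaling in edgeR. The authors deposited log2 CPM values for 12787 genes. Their own fold changes, mean log2 CPM, likelihood-ratio statistics, p-values and FDR were not used.

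The main test was limma 3.58.1 in R 4.3.3 (lmFit and eBayes with trend, group as the only factor), with Benjamini-Hochberg adjustment over all genes and a threshold of 0.05. Whole reads were recovered from the steps of the values to within 0.05 reads for 100% of values, and gave the depth (1 read was worth 0.0403 to 0.0450 CPM) and voom as an alternative. Each 95% interval is for the difference between the group means, with a variance that limma draws toward a trend over all genes. Differences within a mouse were compared by exact permutation. Alternatives were variance models, filters, a pseudocount, other scalings, voom and leaving out each mouse. Genes were matched to RefSeq (GRCm38.p6, the build of mm10) by symbol, 12756 of 12787. Of the 40 genes, 17 overlap another gene. Exon lengths, counting all annotated exons of a gene together, came from GENCODE vM21, not from the authors' annotation. Protein sequences were not used here. All 40 genes are named. Values of single mice are given for the 3 of smallest p, the 3 of largest absolute log2 fold change, the ATG8 genes and the mitophagy genes, and other values by range, with values of Atg16l2, Wipi1, Wipi2, Ulk2, Becn1 and Atg9a added after they were seen. Of each other list at most the 3 genes of smallest p are named. The members and lists were chosen with earlier results of these data known. Read recovery, the limma fit and the permutation test were run on simulated or made-up values. The limma simulation changed far fewer genes than were called here, so these runs do not measure error rates in these data. Python 3.11.15, numpy 2.4.6, pandas 2.3.3, scipy 1.17.1 and matplotlib 3.10.9 were used.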

Additional observations from a re-analysis of the deposited data

Results flagged for a closer look

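In 6 of 80 groups (40 genes in HFD and in HFD + IMC) 1 mouse stood apart from the others by Dixon's ratio, the gap to the nearest mouse divided by the range of the group, with critical values of 0.710 for 5 mice and 0.625 for 6. Chance gives such a flag in about 1 in 20 groups. In HFD, Atg9a was high in mouse 5 (6.07 log2 CPM, nearest mouse 5.76, ratio 0.876) and Uvrag was low in mouse 1 (5.77, nearest 5.98, ratio 0.788). In HFD + IMC, Ulk3 was high in mouse 5 (4.32, nearest 4.10, ratio 0.720), Atg16l2 was high in mouse 3 (3.33, nearest 3.09, ratio 0.638), Ambra1 was low in mouse 1 (5.44, nearest 5.65, ratio 0.643) and Atg5 was high in mouse 1 (5.59, nearest 5.51, ratio 0.681).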

How the results depend on the processing

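Of the 16 called autophagy genes, 11 were called in all 11 fits that left out 1 mouse and 14 in all 8 other settings, and 0 called values changed sign. The number of lower genes ranged from 2 to 5 over the fits that left out 1 mouse, being 2 without HFD mouse 1, 2, 3 or 4 or without HFD + IMC mouse 1, 2, 4 or 6. The autophagy members median log2 fold change (over the 40 genes) was 0.0103 with total-count scaling and 0.00982 with limma voom on recovered reads, against 0.04. Both settings moved the median over all genes by the same amount (-0.0321 and -0.0326, to -0.0585 and -0.0590), so the distance between the autophagy genes and the whole table did not change at 2 decimals. Ulk2 minus Ulk1 ranged from 0.0619 to 0.0978 when 1 mouse was left out, and without HFD + IMC mouse 2 its adjusted exact permutation p was 0.0238. No paired analysis was possible because the labels tie no mouse of 1 group to a mouse of the other. Atg9b, with the fewest reads of the 40 genes, had the widest interval.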
